A study of Mus musculus with 4 samples.

Results

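The genes described are 8 members of the SUMO conjugation pathway: the modifiers Sumo2 and Sumo3, the activating enzyme subunits Sae1 and Uba2, and the ligases Pias1, Pias2, Pias3 and Pias4. They were chosen by the gene name that the array files give, and every probe with such a name was taken, which gave 18 of 55681 probes and 8 of 34821 names on the array. SUMO proteins are small ubiquitin-like modifiers that are joined to lysines of other proteins. An activating enzyme built from Sae1 and Uba2 primes the modifier, the Pias proteins are ligases that promote its transfer to targets, and the Senp proteases mature the modifiers and remove them again. In neurons the cycle acts on nuclear and synaptic proteins, CPEB3 itself is a reported SUMO target, and Sumo2 mRNA is a reported target of CPEB3.

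The measurements come from an RNA immunoprecipitation. Lysate of cortex and hippocampus of male C57BL/6 mice aged 8 weeks was kept for 3 h with beads carrying an antibody against CPEB3, an RNA-binding protein that controls translation, or with beads carrying control IgG. Each antibody has 2 samples, each hybridised to a 1-colour array after amplification of 0.2 ug of RNA, and no genotype or treatment of the mice differs between them. Nothing in the labels says that the 2 samples of an antibody are from separate animals or lysates, and the p-values thus cover the spread between these samples alone, which may be technical. A level is the log2 signal of a probe minus the log2 of its array's 75th percentile. Differences are given as CPEB3 IgG minus control IgG, and a probe was called higher or lower where limma's p, adjusted over the 40616 probes bright enough to be fitted, was below 0.05. The alternative settings changed the background correction (normexp), the scaling between arrays (to the median, to spike-in controls, by quantiles, by cyclic loess, or none), the filter on dim probes or the variance model, or left out an array. A difference therefore compares shares of the precipitated RNA, not amounts in the tissue. It gives neither the number of cells of a type nor the RNA per cell.

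The 75th percentile of the signal was 353 to 507 units over the 4 arrays, and 68.0% to 73.4% of the probes were well above background. The labelled tissue was checked against marker genes. All 6 neuronal, all 5 astrocyte, all 5 oligodendrocyte, all 5 microglial, all 4 endothelial and all 3 hippocampal markers were well above background on the 4 arrays. Of 4 markers of other tissues, albumin (Alb) was above background on 0 arrays, while Ins2, Myh6 and Krt5 were above it on all 4. The median difference of the marker lists ran from −0.35 for microglia to 0.57 for astrocytes, where Slc1a3 lay at 3.16 and Aldh1l1 at −3.03, and the part of other cells or of these shifts in the results below was not tested. The summed astrocyte level, in multiples of the 75th percentile, was 84.2 and 48.7 on the CPEB3 arrays (replicates 1 and 2). It was 43.5 and 34.5 on the control arrays. The summed microglial level was 28.9 and 35.2 against 22.8 and 47.9. The arrays of the 2 antibodies lie in different positions of 1 slide, and the antibody cannot be told apart from that position.

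The Sumo2 probes are shown first because they sample the mRNA from its 5′ part to its 3′ end and hold 5 of the 6 probes called higher. The letters are those of the array files, 5′ to 3′ in the sense of the mRNA, and capitals mark runs of at least 4 T. The probe at position 119 of the transcript is printed whole (60 bases), and of 3 others the 30 bases with most T are shown. The files place all of them on the minus strand of mm9, and exon and UTR annotation of that build was not used here.
Sumo2 at position 119, chr11:115395952-115397425: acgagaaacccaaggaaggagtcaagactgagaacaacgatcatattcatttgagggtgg
Sumo2 at position 579, chr11:115384784-115384843: catagtgctctctctttcTTTTccTTTTTT
Sumo2 at position 776, chr11:115384423-115384461: cttgttcgattgcagaaTTTTaatgTTTTT
Sumo2 at position 938, chr11:115384423-115384482: cgtcttgctgtttaaataaacttcttgttt

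The probe at position 119 has a genomic span of 1474 bases, far more than its length, as a spliced alignment gives. The span given for position 776 is 39 bases, shorter than the probe. It lies within the span given for 938, unlike the transcript positions, and this coordinate may be wrong. The order of probes used below is that of the transcript positions. T made up 16.7% of the probe at position 119 and 28.3% of that at 212. It made up 45%, 38.3% and 41.7% of those at 579, 776 and 938, against a median of 28.3% over all probes. A sixth Sumo2 probe, on a cDNA clone, lies 1592 bases beyond the lowest coordinate of the other probes, on the downstream side (chr11:115382772-115382831).

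The signal of each of the 5 fitted Sumo2 probes was higher with the CPEB3 antibody, by 1.63-fold to 3.77-fold, where 15.8% of all probes kept were called higher. Those at 212, 579 and 938 resemble probes of other names, as given below, and may share signal with other transcripts. At the brightest probe, at position 938, the level was 7.84 and 7.70 on the CPEB3 arrays (replicates 1 and 2) and 5.95 and 5.76 on the control arrays. Both CPEB3 values lay far above both control values. The group means were 7.77 ± 0.10 and 5.86 ± 0.13 (SD, n = 2 each), giving a log2 difference of 1.91 ± 0.17 (SE, limma adjusted p = 0.00556). The fold was 3.77 (95% interval 2.73 to 5.2), and the probe ranked 1444 from the top of 40616.

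At position 776 the levels were 6.40 and 6.16 in the CPEB3 precipitates against 4.66 and 4.52 in the controls. This gave 1.69 ± 0.18 as log2 difference (SE, limma adjusted p = 0.00670). At position 579 they were 5.64 and 5.35 against 3.84 and 3.87, with a difference of 1.64 ± 0.18 (SE, limma adjusted p = 0.00710). The groups were thus apart by several times the distance between replicates at all 3 probes nearest the 3′ end, and these 3 kept their calls in all 14 alternative settings.

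The probes nearer the 5′ end gave smaller values. At position 212 the levels were 2.58 and 2.49 in the CPEB3 precipitates against 1.38 and 1.48 in the controls, a difference of 1.11 ± 0.16 (SE, limma adjusted p = 0.0118). At position 119 they were 2.67 and 2.81 against 1.97 and 2.11, a difference of 0.70 ± 0.17 (SE, limma adjusted p = 0.0376). The groups did not overlap at either probe. The call at 212 ended when CPEB3 IgG replicate 1 (1.06) or 2 (1.15) or the scaling (1.07) was left out, and that at 119 in 9 of 14 settings, with each array left out in turn (0.63 to 0.77) and with quantile (0.54), cyclic loess (0.61), spike-in (1.42) or no scaling (0.66) among them.

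The Sumo2 probe on the cDNA clone, downstream of the others, was well above background on 0 of 4 arrays and was not fitted. Its signals were 14.5 and 3.50 units on the CPEB3 arrays against 3.58 and 16.6 units on the control arrays. The 2 groups overlapped.

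**Figure D1:**
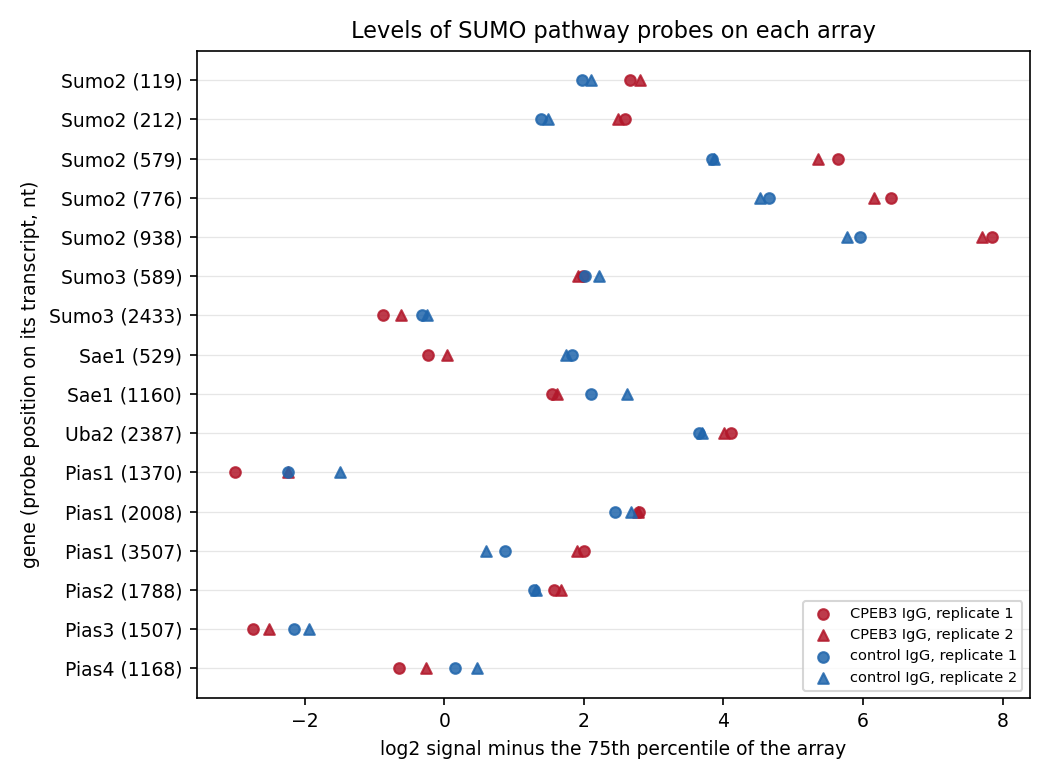
Level of each fitted probe of the SUMO pathway genes on each of the 4 arrays, in log2 units relative to the 75th percentile of that array (horizontal axis), with CPEB3 IgG in red and control IgG in blue and the replicates as circles and triangles; rows are probes, named by gene and position on the transcript. Within each of the 5 Sumo2 rows the red points lie to the right of the blue ones, whereas for Sae1 they lie to the left; positions along the axis are not comparable between rows, because each probe binds with its own strength.

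The Sumo2 difference was larger the nearer the probe lay to the 3′ end, 0.70, 1.11, 1.64, 1.69 and 1.91 from position 119 to 938. Between the outer probes, the difference of differences was 1.21 (95% interval 0.54 to 1.89). It did not pass when adjusted over all 17605 pairs of probes of the same gene (limma adjusted p = 0.0578), of which 10.6% passed. Of the 10 pairs of Sumo2 probes 0 passed and 4 had an unadjusted p under 0.05 in limma. All 10 had the larger difference at the probe nearer the 3′ end, by as little as 0.05 between 579 and 776. With 5 probes in rising order the direction of all 10 pairs is fixed, so they are not 10 separate observations. This direction was common on the array: among 5244 pairs on 1 RefSeq mRNA, 75.7% had the larger difference at the 3′ probe, with a median of 0.45, and 16.4% of pairs passed in this direction against 1.3% in the other.

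Several Sumo2 probes resemble probes with other names, so their signals may be shared with other transcripts. The probe at 938 has 43 of 46 aligned bases in common with a probe named NAP096498-001, which was higher by 1.94 ± 0.16 (SE). The probe at 579 shares 34 of 37 aligned bases with a Gm13430 probe, which was higher by 1.52 ± 0.17. The probe at 212 shares 50 of 53 with a LOC101056627 probe, higher by 1.08 ± 0.17. Leaving out CPEB3 IgG replicate 1 (1.08) or 2 (1.07) or control IgG replicate 1 (0.98), or the scaling (1.04), ended that call. Signals of these transcripts and of Sumo2 cannot be told apart here. A LOC101055913 probe, with 48 of 53 bases in common with the same Sumo2 probe, was above background on 1 array and was not fitted.

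Sumo3 encodes the modifier closest to Sumo2. Its probes are shown because T-rich stretches like those of Sumo2 are found in 1 of them. Neither probe passed the test, and the part of T content in the differences was not tested.
Sumo3 at position 589, chr10:77079173-77079232, plus strand: tttggggtttgTTTTTgTTTTcaTTTTTgt
Sumo3 at position 2433, chr10:77081017-77081076, plus strand: taggTTTTgaatggtgagcccctgtaaaat
The levels at position 589 were 1.99 and 1.91 in the CPEB3 precipitates against 2.02 and 2.21 in the controls. The log2 difference was −0.16 (95% interval −0.62 to 0.29, limma adjusted p = 0.491), near the median of all probes kept, which was −0.19. At position 2433 the levels were −0.87 and −0.62 against −0.32 and −0.24, with a difference of −0.46 (95% interval −0.94 to 0.01, limma adjusted p = 0.111). Both probes had slightly lower CPEB3 than control values, without passing the test, and the signs turned with spike-in scaling (0.55 and 0.25) and, at 589, with median scaling (0.13). The intervals of both Sumo3 probes lie below that of the Sumo2 probe at 938 (1.45 to 2.38). That of the Sumo2 probe at 119 (0.25 to 1.15) overlaps that of the Sumo3 probe at 589. The difference between the genes was not tested. The Sumo3 probe at 589 shares 26 of 30 aligned bases with a probe of Stmn3, which was lower (−2.50 ± 0.17, SE), and its part in the Sumo3 signal was not tested.

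Of the subunits of the activating enzyme, Sae1 was lower at 1 of its 2 probes and the Uba2 probe did not pass. Sae1, which holds the adenylation site together with Uba2, was 3.69-fold lower with CPEB3 IgG at its probe at position 529 (chr7:16952241-16953902, minus strand). The levels there were −0.24 and 0.04 in the CPEB3 precipitates against 1.83 and 1.74 in the controls. The control values lay well above both CPEB3 values, for a log2 difference of −1.88 ± 0.18 (SE, limma adjusted p = 0.00588). Spike-in scaling ended this call (−1.17, limma adjusted p = 0.152). At position 1160 (chr7:16913054-16913113) the levels were 1.55 and 1.62 against 2.10 and 2.61, and the difference of −0.77 ± 0.23 did not pass (SE, limma adjusted p = 0.0654). It passed with normexp background correction (−0.77, limma adjusted p = 0.0174), with a filter on all 4 arrays (0.0445) and with a variance trend (0.0309). The probes differed from each other by 1.11 (95% interval 0.30 to 1.92, limma adjusted p = 0.0926), again with the larger value at the 3′ probe.

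Uba2, the catalytic subunit that carries SUMO as a thioester, has 1 probe, also T-rich (43.3% T), near the end of its transcript.
Uba2 at position 2387, chr7:34925793-34925852, minus strand: aTTTTTgtgtatttgttacagtttcaagtt
The levels were 4.11 and 4.01 in the CPEB3 precipitates against 3.65 and 3.70 in the controls. Both CPEB3 values were higher, but the log2 difference of 0.39 (95% interval −0.03 to 0.81) did not pass (limma adjusted p = 0.126) and passed in 0 of the 14 alternatives, where its adjusted p ran from 0.0505 to 0.650.

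Of the ligases, Pias1 was higher at its probe nearest the 3′ end, and no probe of Pias2, Pias3 or Pias4 passed. The Pias1 levels at position 3507 (chr9:62728172-62728231, minus strand) were 2.00 and 1.90 in the CPEB3 precipitates against 0.87 and 0.59 in the controls. The groups were clearly apart, with a 2.33-fold higher level and a log2 difference of 1.22 ± 0.18 (SE, limma adjusted p = 0.0127). It was not called when CPEB3 IgG replicate 1 (1.17) or 2 (1.27) was left out. At position 2008 (chr9:62729671-62729730) the levels were 2.79 and 2.77 against 2.45 and 2.68, a difference of 0.22 (95% interval −0.25 to 0.68, limma adjusted p = 0.380). At position 1370 (chr9:62739992-62740051) they were −3.00 and −2.24 against −2.23 and −1.50, a difference of −0.76 (95% interval −1.80 to 0.28, limma adjusted p = 0.198). This is the dimmest Pias1 probe, and its replicates lay about as far apart as its groups. The outer Pias1 probes differed by 1.98 (95% interval 0.57 to 3.39, limma adjusted p = 0.0892), which did not pass.

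The Pias2 levels, at position 1788, were 1.57 and 1.67 in the CPEB3 precipitates against 1.29 and 1.31 in the controls. The difference was 0.32 (95% interval −0.10 to 0.74, limma adjusted p = 0.184). Pias3, named as an inhibitor of the transcription factor STAT3, had levels of −2.74 and −2.51 against −2.16 and −1.94 at position 1507 (chr3:96508791-96508850, plus strand). The difference of −0.58 (95% interval −1.08 to −0.07) did not pass (limma adjusted p = 0.0777), and its sign turned with spike-in scaling (0.14). The other Pias3 probe was above background on 1 array, CPEB3 IgG replicate 2, and was not fitted, with signals of 3.93 and 19.2 units against 6.52 and 5.61 units.

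Pias4 levels at position 1168 (chr10:80617226-80617285, minus strand) were −0.65 and −0.26 in the CPEB3 precipitates against 0.15 and 0.47 in the controls. Both CPEB3 values were lower, and the difference of −0.77 ± 0.23 did not pass (SE, limma adjusted p = 0.0630). It passed with normexp background correction (limma adjusted p = 0.0238), cyclic loess (0.0497), a filter on all 4 arrays (0.0427) or a variance trend (0.0346).

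**Figure D2:**
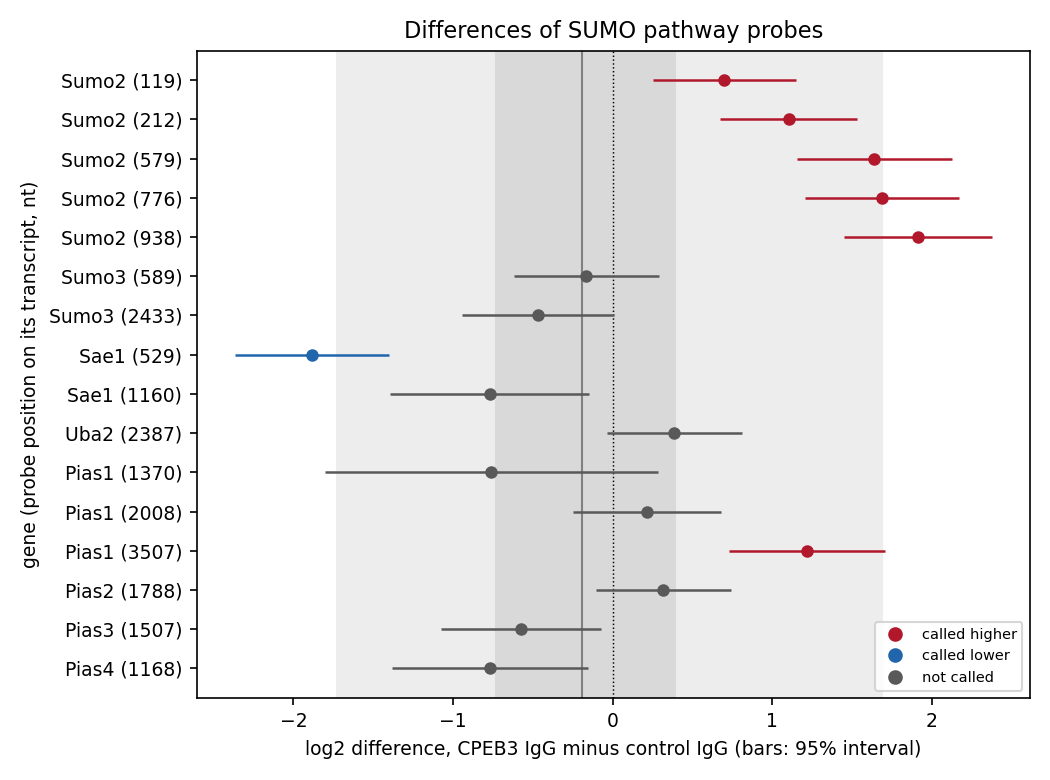
Log2 difference between CPEB3 IgG and control IgG for each fitted probe, with its 95% interval from limma (horizontal axis), for probes named by gene and position on the transcript; the dark and pale grey bands hold the middle 50% and 90% of all 40616 probes kept, and the grey line their median. The 5 Sumo2 probes lie between 0.70 and 1.91, of which the one at 938 lies above the upper edge of the pale band (1.69), and Sae1 at position 529 (−1.88) lies below its lower edge (−1.73).

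Over the 8 genes, 16 of 18 probes were bright enough to be fitted, and 6 were called higher, 1 lower and 9 not called. Over all probes kept, 15.8% were called higher and 18.9% lower, and among those of RefSeq mRNAs 22.6% and 20.1%. Of the 6 higher probes 5 are Sumo2, which share 1 mRNA, and without Sumo2 1 of 11 was called higher and 1 lower, with a median difference of −0.46 against −0.19 over all probes kept. The groups did not overlap at any of the 16 probes (9 higher, 7 lower), where 28.6% of all probes did not overlap upward and 42.7% downward. With the mean of a gene's probes, Sumo2 was higher (1.41 ± 0.15, SE) and Sae1 lower (−1.33 ± 0.17) and the other 6 genes were not called. Leaving out CPEB3 IgG replicate 1 or replicate 2 left 3 of the 6 higher calls each time.

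**Figure D3:**
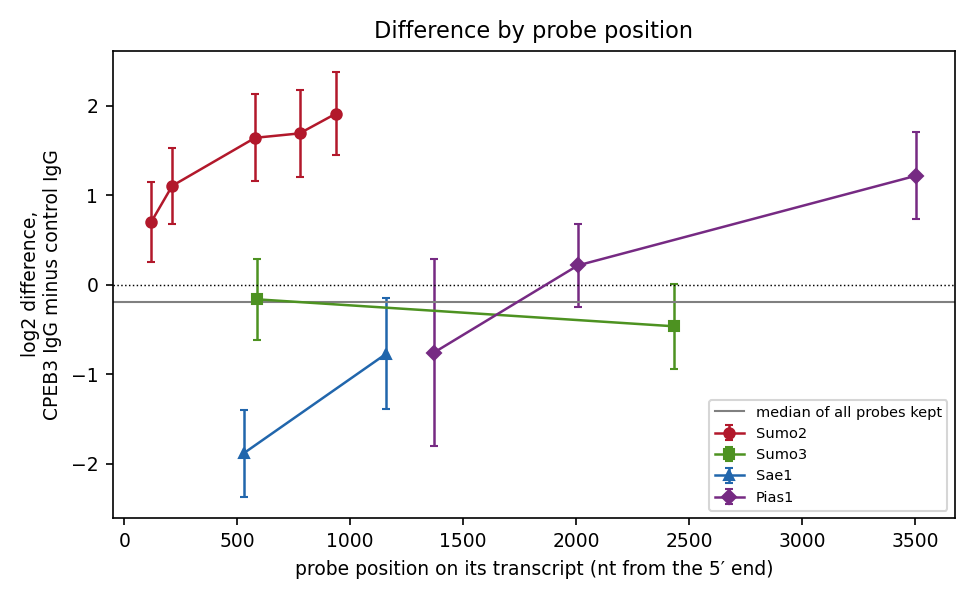
Log2 difference with its 95% interval (vertical axis) against the position of the probe on its transcript in nucleotides from the 5′ end (horizontal axis), with lines joining the probes of 1 gene, for the 4 genes with more than 1 fitted probe. Sumo2, Sae1 and Pias1 had larger values at probes nearer the 3′ end, from 0.70 to 1.91, from −1.88 to −0.77 and from −0.76 to 1.22, and Sumo3 had −0.16 and −0.46.

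The sequences of the 18 probes were searched for 3 U-rich motifs, written in DNA letters, on both strands; they are distinct strings that do not contain each other. TTTTAAT was found in the sense strand of the Sumo2 probe at 776 and in 0.912% of all probes. TTTTGT was found in the sense strand of the Sumo3 probe at 589 and of the Uba2 probe, and in 4.25% of all probes. TTTTAT was found in 0 of the 18 and in 3.69% of all probes. The antisense strands of the 18 held none of the 3, against 5.24% of all probes for TTTTAT, 1.34% for TTTTAAT and 3.39% for TTTTGT. The most T-rich probe of the 18 was that of Sumo3 (50% T).

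The rest of the pathway was taken from a list of 21 further genes, each by its brightest probe, and all 21 were measured. Of these, 9 were higher with CPEB3 IgG, 4 were lower and 8 did not pass, with a median difference of 0.42, while 18.2% of all genes taken the same way were called higher and 18.5% lower, with a median of −0.14. On their transcripts, the probes of the 9 higher genes lay at positions 2374 to 6003. Those of the 4 lower genes lay at 404 to 2269, and those of the 8 others at 856 to 9217. The part of probe position in these counts was not tested.

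The Senp proteases, which remove SUMO, were higher for 5 and lower for 1 of 6 genes. Senp1 had the largest difference of the 21 genes, with levels of −1.39 and −1.04 against −3.82 and −4.41. It was 7.48-fold higher (log2 difference 2.90, 95% interval 2.16 to 3.64). With normexp background correction the difference of Senp1 was 1.36, below that of Desi2 (2.19). Senp5 (1.53 ± 0.18, SE), Senp3 (1.16 ± 0.16), Senp6 (0.96 ± 0.16) and Senp2 (0.67 ± 0.17) were also higher. Senp7 was lower at its brightest probe, at position 404 (−1.43 ± 0.21), and higher at its other probe, at 4221 (1.96 ± 0.29). The files assign this other probe to other transcripts of the gene. The 2 probes differed from each other by 3.40 (95% interval 2.15 to 4.64, limma adjusted p = 0.0335 over all pairs).

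Of the other genes, the deSUMOylating isopeptidases Desi2 (2.25 ± 0.18, SE) and Desi1 (0.71 ± 0.15) were higher, as were the SUMO-targeted ubiquitin ligase Rnf111 (1.23 ± 0.20) and the SUMO ligase Zfp451 (1.16 ± 0.17). Rangap1, a major SUMO substrate at the nuclear pore, was lower (−1.45 ± 0.20), with the ligases Nsmce2 (−1.17 ± 0.18) and Mul1 (−0.93 ± 0.19). Those not called were Topors, Uspl1, Zmiz1, Ranbp2, Pml, Rnf4, Zmiz2 and Rwdd3, with differences from −0.59 to 0.45. A second Zmiz1 probe, nearer the 3′ end, was called higher (1.83 ± 0.22). A second Rwdd3 probe was called lower (−0.74 ± 0.17) and kept that call in 3 of 14 alternatives. The other probes of Senp3 (0.83 ± 0.17) and Nsmce2 (−0.88 ± 0.18) were called in the direction of the brightest, and kept this in 8 and 3 alternatives. Those of Mul1 (0.11), Senp5 (0.39) and Desi1 (0.04 and 0.43) were not called.

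**Figure D4:**
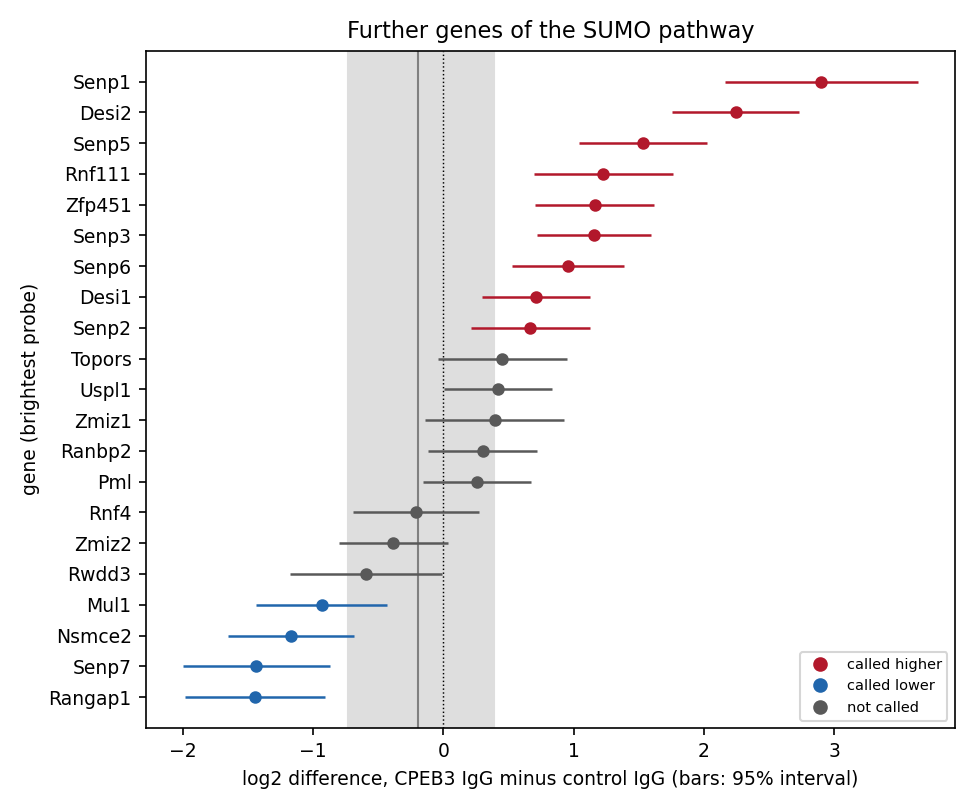
Log2 difference between CPEB3 IgG and control IgG with its 95% interval (horizontal axis) for the brightest probe of each of 21 further genes of the SUMO pathway, ordered by the difference; the grey band holds the middle 50% of all probes kept and the grey line their median. Senp1 (2.90) and Desi2 (2.25) lie at the top and Senp7 (−1.43) and Rangap1 (−1.45) at the bottom.

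Of the 13 calls in this list, Senp1 and Desi2 held in all 14 alternatives, and none of the 13 changed its direction in any of them. With spike-in scaling the 4 lower calls were lost, with Mul1 at −0.22, Nsmce2 at −0.45, Senp7 at −0.72 and Rangap1 at −0.73. Desi1 (1.43) and Senp2 (1.38) lost their higher calls with it too, which left 7 higher. Senp2 was also not called with quantile normalization (0.53) or cyclic loess (0.58), and Mul1 with median scaling (−0.64). Without the filter on dim probes Desi1, Senp2 and Mul1 were not called. Without scaling 4 of the list were higher and 3 lower, and Zfp451 (1.13), Senp3 (1.12), Senp6 (0.92), Desi1 (0.68), Senp2 (0.63) and Mul1 (−0.97) lost their calls. Without CPEB3 IgG replicate 1, 2 were higher and 0 lower (5 lower at an unadjusted limma p under 0.05), and Senp5 (1.40), Rnf111 (1.04), Zfp451 (1.16), Senp3 (1.14), Senp6 (0.89), Desi1 (0.68), Senp2 (0.78), Mul1 (−1.06), Nsmce2 (−1.21), Senp7 (−1.24) and Rangap1 (−1.34) lost their calls. Without CPEB3 IgG replicate 2, 4 were higher and 1 lower, and Zfp451 (1.17), Senp3 (1.17), Senp6 (1.02), Desi1 (0.75), Senp2 (0.56), Mul1 (−0.81), Nsmce2 (−1.12) and Rangap1 (−1.55) lost theirs. Without control IgG replicate 1 or 2 the counts were 6 higher and 2 lower or 6 higher and 3 lower. Senp6 (0.93 and 0.98), Desi1 (0.72 and 0.71), Senp2 (0.70 and 0.64) and Mul1 (−1.03 and −0.84) then lost their calls in both, and Nsmce2 (−1.03) without replicate 1.

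For the other ubiquitin-like modifiers and their activating enzymes, taken in the same way, 1 of 13 genes was higher, 7 were lower and 5 did not pass, with a median of −1.06. The higher gene was Uba6 (1.13 ± 0.20, SE), a second activating enzyme for ubiquitin, whose other probe, nearer the 5′ end, was lower (−1.32 ± 0.19). Its 2 probes differed by 2.45 (95% interval 1.92 to 2.97, limma adjusted p = 0.0282 over all pairs). The call of the first was lost without scaling (1.09) and when CPEB3 IgG replicate 1 (0.95) or control IgG replicate 1 (1.16) or 2 (1.09) was left out, and that of the other with spike-in scaling (−0.60) and when CPEB3 IgG replicate 2 (−1.17) was left out. The polyubiquitin gene Ubb (−3.13 ± 0.17, SE), the ubiquitin-activating enzyme Uba1 (−2.06 ± 0.16) and the modifier Nedd8 (−1.80 ± 0.19) had the smallest p-values of the 13. The calls of Uba1 (−1.34) and Nedd8 (−1.09) were lost with spike-in scaling. Whether the SUMO genes and these genes differ as groups was not tested.

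The pattern of the brightest Sumo2 probe over the 4 arrays was compared with those of 22088 probes of RefSeq mRNAs by the Euclidean distance of mean-centred log2 levels. The nearest genes were Adcyap1 (distance 0.014), Caap1 (0.029), Bcl11a (0.033), Grm8 (0.035) and Tmem173 (0.044), with differences of 1.88 to 1.94. With 4 arrays such a likeness describes little more than an equal difference between the antibodies.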

How the data were processed

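RNA from 4 immunoprecipitates, grouped by their titles into 2 per antibody, was measured on Agilent arrays. The deposited files hold a Cy3 intensity per spot, which the headers show as processed by Feature Extraction 10.5.1.1, with background subtracted and no normalisation between arrays. Probe coordinates refer to mm9, per the file headers.

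After control and outlier spots were removed, the log2 intensity was averaged by probe and set against the array's 75th percentile. A probe was kept (40616) if 2 or more arrays had it well above background. Differences were fitted with limma 3.58.1 in R 4.3.3 without a block, with Benjamini-Hochberg adjustment over these probes and a threshold of 0.05, and differences between 2 probes of a gene likewise over all such pairs. List genes were represented by their brightest probe, under the files' gene names. Named were all members, the pathway genes that passed, the Senp genes, the 3 ubiquitin-like genes with the smallest p and the 5 nearest patterns. Look-alike probes, second probes, Uba6 and pathway genes that did not pass were named after their values were seen.

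Alternatives were another background correction, scalings, filters, thresholds, a variance trend, the replicate number as a block and each array left out. The fit was tested on simulated data. With 14111 of 40616 probes changed, it recovered 73% of them with the right sign and made 358 false calls. With 200 probes changed, it recovered 0 of 50 at each of 1.5-fold, 2-fold, 4-fold and 8-fold. Members and lists were chosen with earlier results of these data known. Some items of the lists are not reported here, and counts leave them out. Precision is limited by the number of arrays.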

Additional observations from a re-analysis of the deposited data

How the results depend on the processing

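Of 40616 probes 6423 were called higher and 7688 lower. The lower count was 4316 with median scaling, 966 with spike-in scaling and 4702 with dim probes kept, and unscaled signals gave 3937 higher. At adjusted p 0.01 there were 2735 higher and 2015 lower, and with 1 array left out 2347 to 4682 and 2077 to 5375. Higher calls made up 45.5% of the calls, 66.2% with median and 87% with spike-in scaling. The median difference of all probes kept was −0.19, and 0.098 and 0.52 with those scalings.

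Of the member probes called higher (6), 3 passed at adjusted p 0.01, and 3 to 5 with 1 array left out. Against 1 called lower, there were 3 with normexp correction, with the filter on all 4 arrays, with a variance trend or with the replicate block, 2 with cyclic loess and 0 with spike-in scaling (1 at an unadjusted limma p under 0.05). With 1 array left out it was 1 each time. By the brightest probe of each gene, an alternative chosen after seeing the data, 0 genes were lower (3 at an unadjusted limma p under 0.05).

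Of the further pathway genes, 4 were higher without scaling and 0 lower with spike-in scaling (0 also at an unadjusted limma p under 0.05). With 1 array left out the counts were 2 to 6 higher and 0 to 3 lower.

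Of 17605 probe pairs 1865 were called, 3049 with normexp correction and 0 with the replicate block (5791 at an unadjusted limma p under 0.05) or with 1 array left out (0 each time, and 3717 to 4928 unadjusted). Member pairs called were 0, and 4 with normexp correction and 2 with quantile normalization, all of them Sumo2.

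Deviations of same-numbered samples from their group means correlated at 0.36 over probes, but with 2 numbers they were not treated as paired. The 2 lower calls that the replicate block added were Pias4 (limma adjusted p = 0.0328) and Pias1 at 1370 (0.0329). With the block Senp2 was not called (0.0517). The cause of these changes was not tested. Of 9 member probes that were not called, 3 changed sign with a scaling, and of the 7 called 0 did.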
